A study of Oryza sativa with 12 samples.

Results

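Of the 30 rice loci that the deposited tables list as differing between SD and LD at both developmental stages, LOC_Os02g13430, annotated as receptor-like protein kinase 5, and LOC_Os02g46850, annotated as oligopeptide transporter 4, were the 2 listed in opposite directions. They were chosen by that pattern: a ratio of mean SD to mean LD signal over 2 at the later stage and under 0.5 at the earlier one. The tables name 275 loci in all, 200 at the later stage and 105 at the earlier, so these are 2 of 275. Because the SD to LD ratios of each stage chose both genes, those ratios and the change between stages are given below as a description, without a test.

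The RNA came from the second fully expanded leaf of Nongken 58S, a photoperiod-sensitive male sterile line of japonica rice, and was hybridised to 12 Affymetrix rice arrays. There were 4 groups with 3 biological repeats in each. Per the study, the leaves for all arrays were taken at the same clock time, at night, so the signals hold for that hour only. P-SSD and P-SLD are leaves from the time when the pistil and stamen primordia formed (P), on days with 10 h light and 14 h dark (SD) or 15 h light and 9 h dark (LD). G-SSD and G-SLD are leaves from the earlier time of glume primordium differentiation (G), under the same SD and LD. All 4 groups had received SD beforehand to bring on flowering, were the same line with no transgene or added agent, and were split between day lengths once secondary branches were differentiating in the inflorescence. The sources used here give neither the age nor the number of plants behind a repeat. In whole leaves, fewer cells of a type and less RNA per cell cannot be told apart. Of the leaf markers looked up (the small subunit of Rubisco, chlorophyll a/b binding proteins and oxygen evolving enhancer proteins), 1 had a named signal: oxygen evolving enhancer protein 3 (LOC_Os02g36850), part of the water-splitting complex of photosystem II, with signals of 319, 502 and 702 in P-SSD and 1574, 784 and 909 in P-SLD. The other leaf markers, and the floral organ genes OsMADS2, OsMADS3, OsMADS4 and OsMADS16, were not analysed here because the signals that could be theirs carry no name. The tables for the stages hold the authors' normalized signal intensities, a linear brightness in arbitrary units. Whether the tables were normalized together is not stated, so values at P and G stand side by side without a test. The sample columns of the table for G carry the letter P in their headers and were taken as G from the table's title and the series description.

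Receptor-like kinases span the plasma membrane, where an outer domain receives a signal, often a small peptide or a fragment of the cell wall, and an inner kinase domain passes it on by phosphorylation. In Arabidopsis the kinase called RLK5 or HAESA, which has leucine-rich repeats, perceives a peptide that sets off the shedding of floral organs. Oligopeptide transporters carry short peptides and related compounds across membranes together with protons. In Arabidopsis, members of that family have been tied to the movement of peptides and of metals such as iron. One gene is thus annotated as receiving signals at the cell surface and the other as moving peptides, and no role in day length is implied by either annotation.

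For the kinase gene LOC_Os02g13430 the pattern at P was a high signal in SD. Its signals were 397, 339 and 392 in P-SSD (repeats 1, 2 and 3), against 59.9, 66.9 and 313 in P-SLD. The 3 SD arrays lay close together, whereas in LD repeats 1 and 2 were dim and repeat 3 was nearly as bright as the SD arrays. The groups did not overlap, but the lowest SD signal was only 1.08 times the highest LD signal. The mean was 376 ± 32.4 in P-SSD and 147 ± 144 in P-SLD (standard deviation, n = 3 each), a ratio of 2.57 and a log2 ratio of 1.36.

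At G the same gene was dim in SD. It had 80.3, 30.2 and 109 in G-SSD, against 312, 383 and 395 in G-SLD. Every LD array was brighter than every SD array, and the lowest LD signal was 2.87 times the highest SD signal. The mean was 73.1 ± 39.8 in G-SSD and 363 ± 44.6 in G-SLD (standard deviation, n = 3 each), a ratio of 0.201 and a log2 ratio of -2.31. The level in LD was thus 4.97 times that in SD. Repeat 2 of G-SSD, at 30.2, was the dimmest of the 12 arrays for this gene.

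The transporter gene LOC_Os02g46850 was also bright in SD at P. Its signals were 746, 739.6 and 182 in P-SSD, against 85.4, 118 and 103 in P-SLD. Here the uneven group was SD, in which repeat 3 was about as dim as LD, while the LD arrays lay close together. The groups did not overlap, and the lowest SD signal was 1.55 times the highest LD signal. The mean was 556 ± 324 in P-SSD and 102 ± 16.2 in P-SLD (standard deviation, n = 3 each), a ratio of 5.45 and a log2 ratio of 2.45.

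At G the transporter gene gave the most even set of signals of either gene. It had 164, 189 and 154 in G-SSD, against 779, 864 and 812 in G-SLD. The lowest LD signal was 4.13 times the highest SD signal. The mean was 169 ± 18.0 in G-SSD and 818 ± 42.7 in G-SLD (standard deviation, n = 3 each), a ratio of 0.206 and a log2 ratio of -2.28. The level in LD was 4.85 times that in SD, close to the 4.97 times of the kinase gene.

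**Figure D1:**
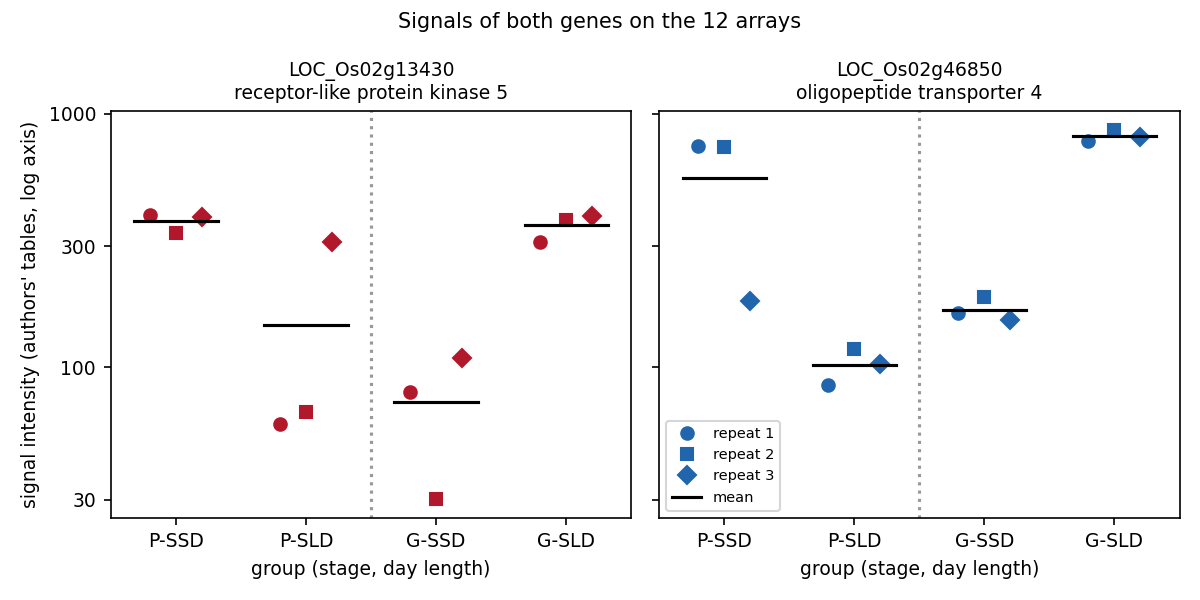
Signal intensity of LOC_Os02g13430 and LOC_Os02g46850 (log axis, arbitrary units) on each of the 12 arrays, by group, with the repeat number as the marker and the group mean as a bar. Both genes sit high in P-SSD and G-SLD and low in P-SLD and G-SSD, with repeat 3 of P-SLD (313, kinase gene) and repeat 3 of P-SSD (182, transporter gene) away from the other repeats of their group.

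Set side by side, the levels of the kinase gene were highest in P-SSD, followed by G-SLD, P-SLD and G-SSD. Each neighbour in that order overlapped with the next: P-SSD ran between 339 and 397 and G-SLD between 312 and 395, and the brightest P-SLD array, at 313, just exceeded the dimmest G-SLD array, at 312. The order of the transporter gene was G-SLD, P-SSD, G-SSD and P-SLD. There the P-SSD arrays, at 182 to 746, all lay under the G-SLD arrays, at 779 to 864, and the P-SLD arrays, at 85.4 to 118, all lay under the G-SSD arrays, at 154 to 189. P-SSD and G-SSD overlapped through repeat 3 of P-SSD.

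Within SD the mean of the kinase gene at P was 5.15 times that at G, and within LD it was 0.403 times that at G. For the transporter gene these values were 3.29 in SD and 0.125 in LD, so that the LD mean at G was 8.02 times that at P. Across the 28 other loci listed at both stages the median of P over G was 0.954 in SD (range 0.448 to 1.39) and 0.925 in LD (range 0.460 to 1.46). The rule itself sets P over G apart between SD and LD for both genes, so nothing is read from these ranges. That the stages' levels of the other loci were near each other is a measured fact about the tables and does not show that they were normalized together.

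The 28 other loci kept 1 direction, 14 higher in SD at both stages and 14 lower at both. The 2 genes described here are 6.67% of the 30, a share that the rule fixes. The log2 ratio at P minus that at G was 3.67 for the kinase gene and 4.72 for the transporter gene. The rule forces this difference above 2 for both genes, so nothing is read from its size beside that of the other loci. Over the other 28 loci the size of this difference had a median of 0.29 and reached 1.41. Those with the widest gap included the glutaredoxin gene OsGrx_C7.2 (LOC_Os01g26912), of a family that reduces disulfides with glutathione, whose log2 ratio was 1.36 larger at P, and the florigen gene Hd3a (LOC_Os06g06320), with 5.29 at P and 6.19 at G. Both differed in size between the stages and not in direction. Loci that did not reach the fold threshold at both stages have no named signal at both, so values just outside the rule cannot be given. Just inside it, the kinase gene at P, at 2.57, came nearest to the threshold of 2.

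**Figure D2:**
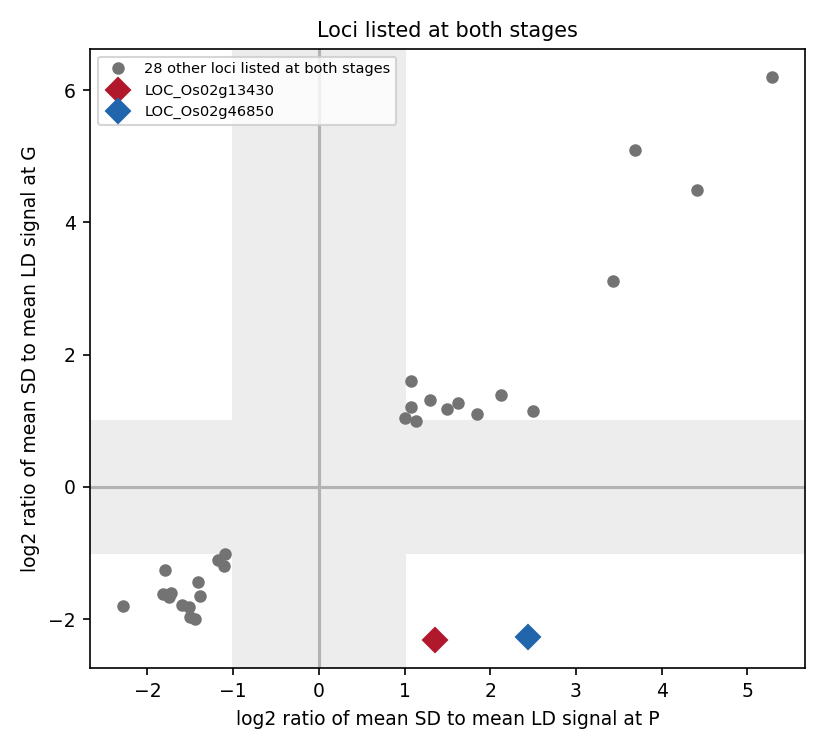
Log2 ratio of mean SD to mean LD signal at P (horizontal axis) and at G (vertical axis) for the 30 loci listed at both stages, with grey bands for ratios that the tables do not list. The 28 other loci lie in the upper right and lower left, and LOC_Os02g13430 (1.36, -2.31) and LOC_Os02g46850 (2.45, -2.28) lie alone in the lower right. The rule that chose both genes places them there.

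The repeats differed most at P. For the kinase gene the SD to LD ratio of same-numbered arrays was 6.63 in repeat 1, 5.07 in repeat 2 and 1.25 in repeat 3. For the transporter gene it was 8.73 in repeat 1, 6.29 in repeat 2 and 1.77 in repeat 3. Both genes were thus above 1 in 3 of 3 repeats, and in repeat 3 neither reached the ratio of 2 by which the genes had been listed. At G the ratios were 0.257, 0.0788 and 0.276 for the kinase gene and 0.210, 0.219 and 0.189 for the transporter gene, under 0.5 in 3 of 3 repeats each. These counts of 3 of 3 were fixed for any pairing of the arrays. The SD and LD signals did not overlap, and at G the lowest LD signal was 2.87 and 4.13 times the highest SD signal. Without repeat 3 of both day lengths the log2 ratio at P was 2.54 for the kinase gene and 2.87 for the transporter gene, against 1.36 and 2.45 with it. Without P-SLD repeat 3 alone, that of the kinase gene was 2.57, and without P-SLD repeat 1 alone it was 0.99, just under the 1 that a ratio of 2 gives.

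Among the other genes listed at P, repeat 3 gave the smallest difference more often than repeat 1 or 2. The share over all probe sets was not computed. The difference here is the size of the log2 ratio, whatever its sign. Among the 96 others higher in SD there, repeat 3 had the smallest difference in 40 (41.7%), repeat 2 in 32 (33.3%) and repeat 1 in 24 (25%). Their median ratio was 4.57 in repeat 1, 3.25 in repeat 2 and 3.23 in repeat 3. Among the 103 others lower in SD, repeat 3 had the smallest difference in 52 (50.5%), repeat 2 in 32 (31.1%) and repeat 1 in 19 (18.4%). In repeats 1 and 2 both genes lay above the median of the higher genes, and in repeat 3 both lay below it. At G, among the 46 others lower in SD, the median ratio was 0.315, 0.329 and 0.352 in repeats 1, 2 and 3. Of those 46, repeat 3 had the smallest difference in 18 (39.1%) and repeat 2 in 17 (37.0%). Among the 57 others higher in SD at G, repeat 2 had it most often, in 28 (49.1%).

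**Figure D3:**
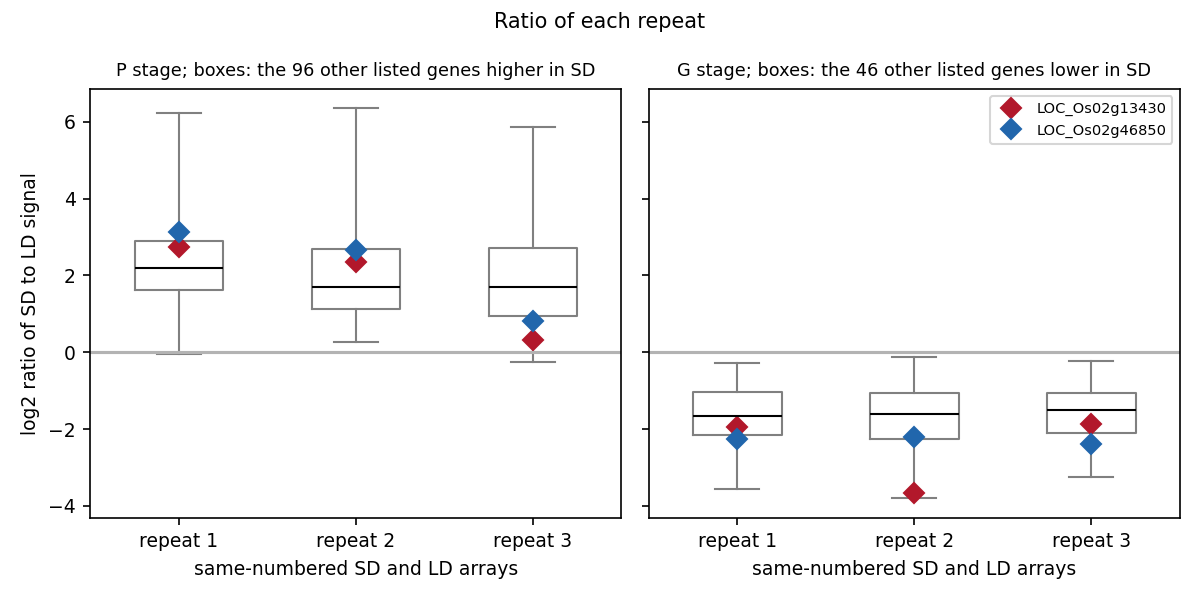
Log2 ratio of SD to LD signal in each pair of same-numbered arrays at P (left) and at G (right), for both genes (diamonds) and, as boxes with whiskers to the lowest and highest value, for the other genes listed in the same direction (96 at P, 46 at G). At P the diamonds sit lowest in repeat 3, at 0.33 for LOC_Os02g13430 and 0.82 for LOC_Os02g46850, and at G all 6 lie below -1.

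The spread within groups was unequal among the genes listed. The coefficient of variation of the kinase gene was 98.3% in P-SLD, where 4 of the 201 listed genes had a larger one and the median was 23.2%, but 8.60% in P-SSD, where the median was 36.0%. That of the transporter gene was 58.2% in P-SSD and 15.8% in P-SLD. At G the kinase gene had 54.5% in G-SSD and 12.3% in G-SLD, and the transporter gene had 10.7% and 5.22%, where the medians over the 105 listed genes were 23.1% in G-SSD and 28.7% in G-SLD. Each gene was hence uneven in 1 group at P, and the groups were not the same. The lack of overlap between SD and LD is no mark of these genes, since it held for 177 of the 201 genes listed at P (88.1%) and 101 of the 105 listed at G (96.2%).

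Ordered by the size of the ratio, the transporter gene was the 27th of the 98 genes listed as higher in SD at P, and the kinase gene was the 73rd. At G both were near the head of the 48 genes lower in SD, the kinase gene the 4th and the transporter gene the 5th.

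At P other listed genes showed the same uneven arrays. Pearson correlation of log2 signal over the 6 arrays gave the 5 genes most like the transporter gene. They began with LOC_Os03g60520, of unknown function (r = 0.986), and LOC_Os07g41570, annotated as an RNA helicase of the DEAD/DEAH box type (r = 0.985). LOC_Os03g18550, annotated as the mitochondrial RNA-splicing protein MRS3, followed (r = 0.985). Next came LOC_Os10g11354, annotated as transparent testa 12, which in Arabidopsis moves flavonoids into the vacuole (r = 0.985). The last was LOC_Os05g41620, of unknown function (r = 0.983). Each of the 5 had a dim repeat 3 in P-SSD. LOC_Os10g11354, for instance, had 816, 822 and 189 in P-SSD and 109, 108 and 155 in P-SLD. LOC_Os03g18550 had 1573, 1385 and 445 in P-SSD and 324, 462 and 331 in P-SLD.

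The genes most like the kinase gene at P shared instead its bright repeat 3 in P-SLD. They were LOC_Os03g33580, annotated as BUB3, a protein of the checkpoint on chromosome attachment in mitosis (r = 0.985), LOC_Os10g34270, of unknown function (r = 0.974), LOC_Os01g34850, annotated as the cation transporter HKT3 (r = 0.945), LOC_Os09g25610, annotated as a defense-related protein (r = 0.943), and LOC_Os06g48800, annotated as the cation transporter HKT9 (r = 0.937). LOC_Os03g33580 had 367, 313 and 266 in P-SSD and 80.4, 86.2 and 246 in P-SLD. LOC_Os10g34270 had 2026, 1923 and 1622 in P-SSD and 564, 413 and 1565 in P-SLD. The HKT genes had nearly the same signal as each other on every array, and whether their probes are shared was not tested. None of the genes named in these paragraphs on P was listed at G.

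At G the genes most like the kinase gene all had their lowest signal in repeat 2 of G-SSD, but by unequal margins. They were LOC_Os01g69840, of unknown function (r = 0.964), LOC_Os06g28050, annotated as a ferredoxin with a DnaJ domain (r = 0.953), LOC_Os08g38710, annotated as stachyose synthase, an enzyme of the raffinose family of sugars (r = 0.948), LOC_Os03g18870, annotated as a DnaJ chaperone (r = 0.945), and LOC_Os01g74020, annotated as ARR1 protein-like (r = 0.945). LOC_Os08g38710 had 320.4, 110.1 and 375 in G-SSD and 435, 729.9 and 792 in G-SLD. LOC_Os01g74020 had 485, 442 and 996 in G-SSD and 1452, 1435 and 1690.0 in G-SLD, where repeat 2 was only a little under repeat 1 and repeat 3 of G-SSD was the brighter one.

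Those most like the transporter gene at G were LOC_Os07g47400, annotated as the cold-regulated SRC2 of soybean (r = 0.995), LOC_Os02g38970, annotated as the ubiquitin ligase MIB2 (r = 0.992), LOC_Os05g38880, of unknown function (r = 0.991), LOC_Os07g49460, the clock gene OsPRR37 (r = 0.984), and LOC_Os08g41910, annotated as protein yciO (r = 0.981). OsPRR37 had 39.7, 38.8 and 33.6 in G-SSD and 129, 106 and 101 in G-SLD. LOC_Os08g41910 had 36.5, 50.5 and 44.2 in G-SSD and 423, 255 and 342 in G-SLD, a wider spread in LD than that of the transporter gene. All listed genes were chosen for a difference between SD and LD over the same 6 arrays, so these values order the listed genes and carry no more.

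**Figure D4:**
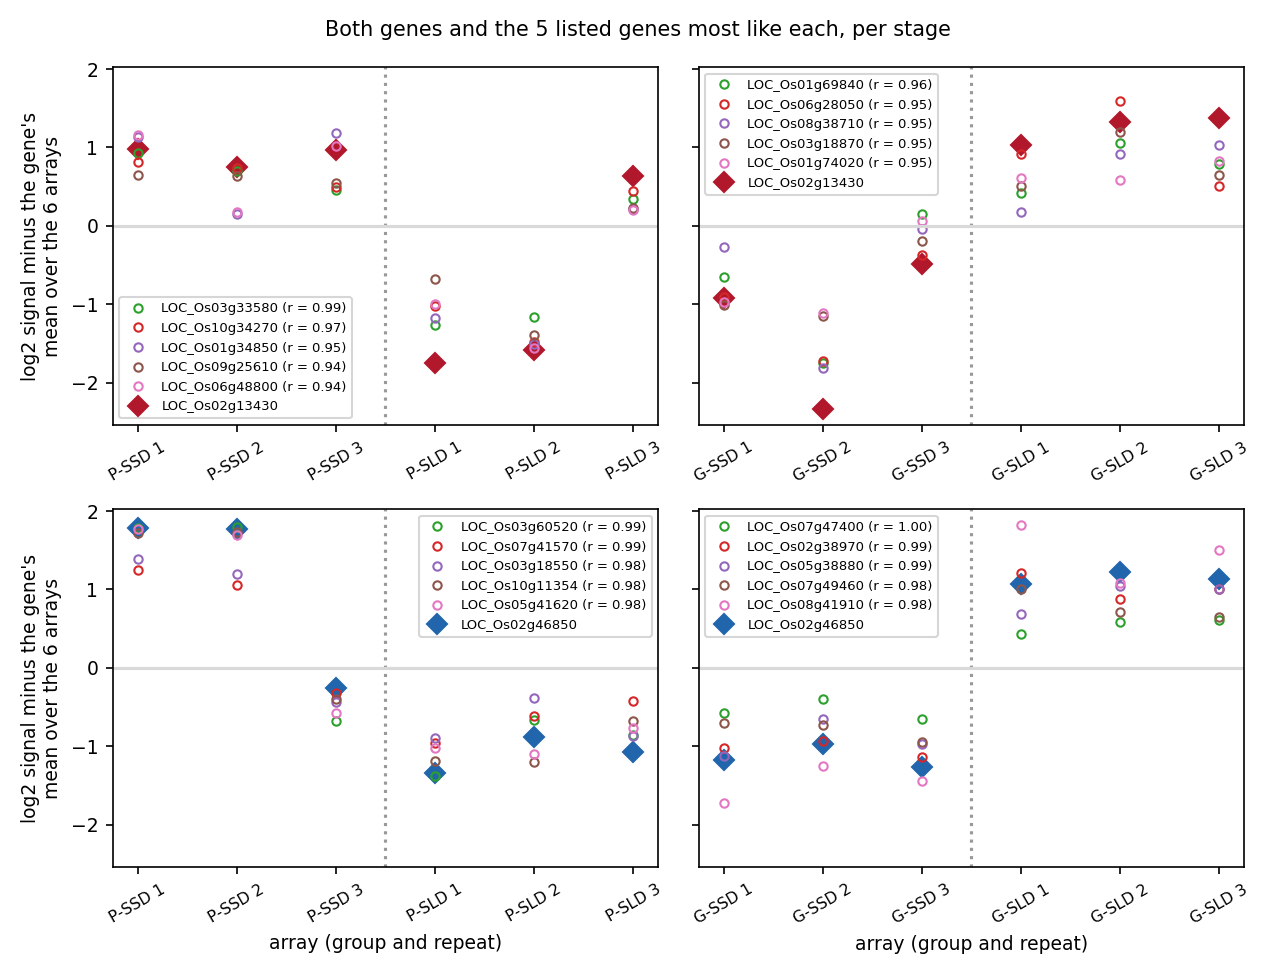
Log2 signal minus the gene's mean over the 6 arrays of a stage, for LOC_Os02g13430 (upper row) and LOC_Os02g46850 (lower row) at P (left) and G (right), with the 5 listed genes of highest correlation as open circles. At P the circles follow the high P-SLD repeat 3 of the kinase gene and the low P-SSD repeat 3 of the transporter gene.

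Over all 12 arrays each of the pair was the shared locus most like the other (r = 0.66), as the rule that chose them leads to. Within P their correlation was 0.64 and within G 0.88 (6 arrays each). The next shared loci for the kinase gene were LOC_Os03g15920, of unknown function (r = 0.35), and LOC_Os05g51150, annotated as an RNA polymerase sigma factor of the type used in plastids (r = 0.31). For the transporter gene they were LOC_Os09g31130, annotated as a tonoplast dicarboxylate transporter (r = 0.30), and LOC_Os06g51260, annotated as a CCA1-type MYB factor (r = 0.25). These correlations span tables that may have been normalized apart, and the points share the 3 repeats and the 4 groups.

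Other genes with related annotations were listed in both directions. Of 5 receptor and wall-associated kinase genes listed at P, the kinase gene described here was the 1 higher in SD and 4 were lower, beside 98 higher (48.8%) and 103 lower (51.2%) among all 201 listed. The median log2 ratio of the 5 was -1.47, against -1.01 over all listed genes. Listed genes have no ratio between 0.5 and 2, so the overall median lies at the threshold. It is no typical ratio, and nothing is read from the comparison. The lower ones were LOC_Os07g43560 and LOC_Os07g43570, both annotated as the cysteine-rich receptor-like kinase CRK10 or RLK4, with ratios of 0.484 and 0.362, LOC_Os01g04450 (OsWAK2), a cytoplasmic kinase of the wall-associated family, with 0.362, and LOC_Os08g29020, annotated as wall-associated kinase-like 2, with 0.339. Wall-associated kinases bind pectin of the cell wall. LOC_Os08g29020, for instance, had 118, 176 and 459.7 in P-SSD and 753, 451 and 1016 in P-SLD, so that its groups overlapped. The SD and LD groups overlapped in each of these 4 lower kinase genes.

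At G, 3 such kinase genes were listed, 1 higher and 2 lower in SD, beside 57 higher (54.3%) and 48 lower (45.7%) of all 105. The lectin receptor kinase gene LOC_Os02g48210 was low in SD together with the kinase gene described here, with 54.2, 48.6 and 37.8 in G-SSD and 93.4, 269 and 229 in G-SLD, a ratio of 0.238. OsWAK36 (LOC_Os04g24510) was high, with 348, 278 and 70.5 in G-SSD and 59.0, 26.6 and 48.6 in G-SLD, a ratio of 5.18. None of the kinase genes other than LOC_Os02g13430 was listed at both stages.

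A second oligopeptide transporter gene, LOC_Os06g03560, annotated as oligopeptide transporter 9, was listed at P, with 225, 668 and 493 in P-SSD and 1103, 1044 and 857 in P-SLD. Its ratio of 0.462 was opposite in direction to that of LOC_Os02g46850, and it was not listed at G. Other membrane transporters were counted by the words transporter, permease, aquaporin or carrier protein in the annotation. They numbered 10 at P, of which 5 were higher and 5 lower in SD, and 6 at G, of which 4 were higher and 2 lower. LOC_Os03g18550 and LOC_Os10g11354, described above and higher in SD at P, lack these words and were not counted. At P the higher ones included aquaporin PIP2.2 (LOC_Os02g41860), a water channel of the plasma membrane, with a ratio of 6.69, and the lower ones the purine permease gene LOC_Os04g49757, with 0.264. At G the lower ones were LOC_Os10g38910, annotated as part of an ABC-type cobalt transport system, with a ratio of 0.493, and the amino acid transporter gene LOC_Os01g43040, with 23.5 to 34.3 in G-SSD and 71.4 to 81.8 in G-SLD, a ratio of 0.389. Of these other transporter genes 2 were listed at both stages, each in 1 direction. The tonoplast dicarboxylate transporter gene was higher in SD, by 3.58 times at P and 2.15 times at G, and LOC_Os10g38910 was lower, with ratios of 0.470 at P and 0.493 at G.

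A separate table from the authors gives a signal for each of 57381 probe sets on the 12 arrays, without gene names. It shows how often a reversal of this form occurs. After 187 control probe sets were left out and signals were quantile normalized, the fit kept 25360 probe sets, those whose signal reached the 60th percentile on 3 arrays or more. Of these, 61 (0.241%) had a ratio over 2 at P and under 0.5 at G, and 41 (0.162%) had the mirror pattern. Single conditions were commoner: 874 (3.45%) were over 2 at P and 444 (1.75%) under 0.5 at G. Groups did not overlap for 9.63% of probe sets at P and 8.38% at G, and for 1.01% together with a ratio over 2 at P and 0.631% together with a ratio under 0.5 at G. With groups that did not overlap at either stage, as in both genes, 4 (0.0158%) had the pattern and 12 (0.0473%) the mirror pattern. The 61 probe sets were mostly dim, with a median signal of 22.4 against 87.0 over all kept probe sets. With signals as deposited the counts were 39 and 78, so that the commoner of the patterns changed.

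A test of whether the SD to LD ratio changed between P and G called 0 of the 25360 probe sets at an adjusted p under 0.05 (limma, two-sided, Benjamini-Hochberg adjustment), and the smallest adjusted p was 0.13. At an unadjusted p under 0.05 there were 906 (3.57%), of which 280 (1.10%) had the higher SD to LD ratio at P. The number called was 1 without P-SSD repeat 3 or with array weights, and 0 with the repeat number as a block.

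**Figure D5:**
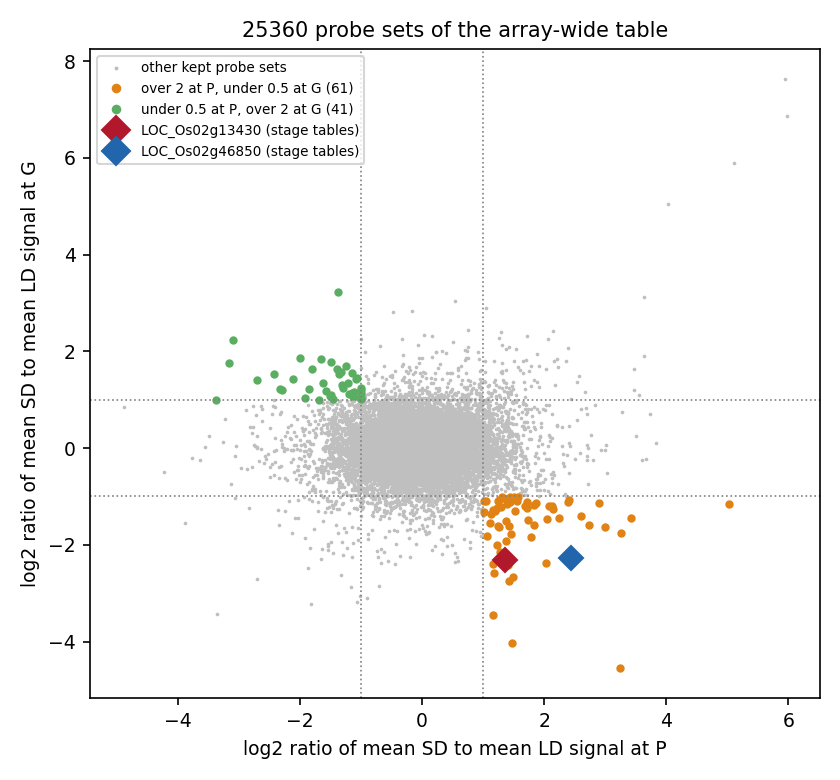
Log2 ratio of mean SD to mean LD signal at P (horizontal axis) and at G (vertical axis) for the 25360 kept probe sets of the array-wide table after quantile normalization, with dotted lines at ratios of 2 and 0.5. The 61 probe sets of the rule's direction are orange and the 41 of the mirror direction green, and diamonds mark both genes from the authors' stage tables, which were processed differently.

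The signals of both genes in the stage tables were set against this array-wide table, a comparison chosen after the data had been seen. Both had means of at least 300 in P-SSD and in G-SLD. Of the 57194 probe sets other than controls, 4832 had such means, and 4 of those had a ratio over 2 at P and under 0.5 at G. Of these 4, 2 also had ratios about as large as those of both genes, over 2.5 at P and under 0.25 at G (2 as deposited, 1 with arrays centred on their medians). In all 4 the SD and LD signals overlapped at both stages, under each of the 3 scalings, whereas those of both genes in the stage tables did not. By stage, 11 probe sets had a P-SSD mean of at least 300, a ratio over 2.5 and no overlap (6 as deposited), where 27 genes listed at P had these, both genes among them. At G, 0 probe sets (1 as deposited) had a G-SLD mean of at least 300, a ratio under 0.25 and no overlap, where 5 listed genes had these, again with both genes among them.

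The shape of the signals over the 6 arrays of a stage was compared in the same way, over listed genes and probe sets with a signal of at least 30 on each of them. The distance was the root mean square difference of log2 signals, each centred on its mean over the 6 arrays. The probe set closest in shape to the kinase gene lay at 0.55 at P and 0.56 at G, where the median over listed genes was 0.20 at P (154 genes, 11 farther than the kinase gene) and 0.17 at G (88 genes, 3 farther). For the transporter gene the closest lay at 0.57 at P (9 genes farther) and 0.24 at G (27 farther). Among the genes listed in the same direction the median was 0.30 at P (68 genes, with 11 farther than the kinase gene and 9 farther than the transporter gene). At G it was 0.24 (43 genes, with 2 farther than the kinase gene), the value of the transporter gene itself. A gene with a wider spread over the 6 arrays has more room to lie far from any probe set, and the distances were not adjusted for that spread. The array-wide table and the stage tables were not made by the same stated steps, the sources used here do not say which probe sets belong to these genes, and the source of the gap was not tested.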

How the data were processed

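The authors deposited, for each stage, a table of linear signal intensity for listed genes on 6 arrays, with a fold and a P value of their own comparison that were not used here. Per the methods, images were read in GCOS 1.4 and arrays were scaled to an invariant set in dChip, with background taken from 5% of perfect-match signals. Genes were listed by fold. For its own counts of differing genes the study also required a t-test P under 0.05, and those counts are smaller than the lists used here. A listed gene need not have passed that threshold, and whether both genes did was not looked up here. They also deposited array-wide signal intensity, for which the processing notes name GCOS 1.4. The sources used here do not say whether dChip preceded it.

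The titles gave the group and repeat of each sample. The ratio was the mean SD signal over the mean LD signal. Array-wide signals were quantile normalized (median as deposited 6.92 to 9.18 per array) and fitted with limma 3.58.1 in R 4.3.3, with a coefficient for each of the 4 groups, trend and moderated variances. The procedure was tested on simulated data with noise independent between arrays. Deviations shared by same-numbered arrays were not simulated, the outcome is not given here, and nothing is read from it. The number of arrays limits the precision, and p-values reflect only the spread of these repeats. At P deviations from the group means correlated between SD and LD arrays of the same number (0.22, 0.29 and 0.51), so the numbers were taken to pair the arrays there, on the data alone. At G they did not for repeat 2 (0.20, -0.0015 and 0.32), and SD repeat 1 correlated more with LD repeat 2 (0.26) than with LD repeat 1. Ratios of same-numbered arrays at G thus go by number only, without a pairing shown in the data.

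The members, gene lists and tests were chosen with earlier results of these data known. Genes named are both members, for each member and stage the 5 listed genes of highest correlation, the most alike shared loci, the shared loci whose ratios differed most between stages (1 of them is not reported here), and genes with kinase or oligopeptide transporter annotations as described. LOC_Os02g36850 was named as a marker. LOC_Os02g41860, LOC_Os04g49757, LOC_Os10g38910 and LOC_Os01g43040 are not covered by the rule, and their values were known when they were picked. The promoter comparison that had been planned was not run, and no sequence is printed, since no genome sequence was used here.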

Additional observations from a re-analysis of the deposited data

Results flagged for a closer look

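The log2 ratio of SD to LD at P minus that at G was 3.67 for LOC_Os02g13430, the kinase gene, and 4.72 for LOC_Os02g46850, the transporter gene. Both are given here because each of the 3 repeats was above 0 at P and below 0 at G, which the choice of genes by these ratios goes far to fix. Since SD and LD signals did not overlap, any pairing of the arrays gives the same signs. In repeats 1, 2 and 3 the difference between stages was 4.69, 6.01 and 2.19 for the kinase gene and 5.38, 4.85 and 3.22 for the transporter gene. The difference was not tested, since both genes had been chosen for it. Groups of 3 arrays are too small for a search for outlying samples.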

How the results depend on the processing

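The log2 ratios of both genes at both stages were recomputed in 42 ways. The direction was kept in 42, which was fixed in advance, since the SD and LD signals of both genes did not overlap. In 3 of them the value moved by at least the standard deviation between repeats, all for LOC_Os02g13430 at P, with 1.36 as reported: 2.55 from group medians, 2.57 without P-SLD repeat 3, and 2.54 without repeat 3 of both day lengths, a setting chosen after seeing the data. With 1 array left out, LOC_Os02g13430 ran between 0.99 and 2.57 at P and between -2.72 and -1.94 at G, and LOC_Os02g46850 between 2.18 and 2.86 at P and between -2.37 and -2.21 at G. With the repeat number as a block (replicate block), the log2 ratio of LOC_Os02g13430 was 1.80 at P and -2.49 at G. That of LOC_Os02g46850 was 2.20 at P and -2.28 at G. The differences of log2 means without a block had the same values by arithmetic, so the block could not change these ratios and is no check of the pairing. Both settings are counted among the 42. The departure from the reported ratios came from averaging log2 signals. The number of probe sets reversed, 61, was 39 with signals as deposited, 1167 of 57194 without the filter, 10 of 13167 with the 80th percentile, 6 with a ratio of 3 in place of 2 in either direction, and 4 with groups not overlapping. It ran between 53 and 114 with 1 array left out, with 114 without P-SLD repeat 2, 98 without G-SSD repeat 1 and 95 without G-SSD repeat 3. Past an adjusted p of 0.05 (limma) the interaction had 0 probe sets, 1 with array weights and 0 to 1 with 1 array left out. At an unadjusted p it had 1389 as deposited, 1651 without P-SSD repeat 3, 1391 without P-SSD repeat 2 and 1339 with the replicate block. The block changed no call. Dim signals limit the ratios: 16 added to each signal gave a log2 ratio of -2.09 for LOC_Os02g13430 at G.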
